A study of Mus musculus with 47 samples.

Results

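The question of this comparison is for which genes the effect of losing Aire differs according to whether EED is present. It was asked in mTEChi, the medullary thymic epithelial cells (mTECs) with high surface MHC class II, of newborn C57BL/6 mice. The quantity is a difference of effects on the log2 scale, the change from EEDcKO to AireEEDdKO minus the change from Ctrl to AireKO, taken for each gene over 14 of the 47 libraries of the series. The 5 Ctrl libraries came from mice aged 6 days (replicates 1 and 2), 2 to 3 days (3 and 4) and 1 day (5). The 3 EEDcKO libraries came from mice aged 6 days, 2 to 3 days and 1 day, in which Foxn1-Cre removes a floxed Eed in thymic epithelium. The 3 AireKO libraries came from mice that lack Aire in the germline, and the 3 AireEEDdKO libraries from mice with both defects. In both groups replicates 1 and 3 were 4 days old and replicate 2 was 6 days old. Which floxed or Cre alleles the Ctrl and AireKO mice carried is not given in the labels, and 5 of the 14 libraries pool male and female mice. Cells were sorted as CD45-negative, EpCAM-positive and Ly51-negative, a gate that leaves out blood cells and most cortical epithelium.

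Aire is a nuclear regulator through which mTECs transcribe genes of muscle, gut, skin, glands and other tissues, so that developing T cells meet these self-antigens in the thymus. EED belongs to the core of PRC2, the Polycomb complex that places a repressive methyl mark on histone H3 and keeps developmental genes silent. The gate also holds mimetic cells, mTECs that resemble a peripheral cell type such as muscle, tuft or ciliated cells, and dividing precursors. In bulk samples such as these, fewer cells of a type and less RNA per cell cannot be told apart.

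Total counts ran from 1578579 to 4346874, and fell into 7 libraries of 1578579 to 1915167 counts and 7 of 3133603 to 4346874, with every genotype in both classes. Levels below are CPM, counts scaled to a common TMM-adjusted library total. Aire was at 460.1 to 801 CPM in Ctrl and 599 to 1063 CPM in EEDcKO, against 114, 44.4 and 51.6 CPM in AireKO and 22.2, 32.1 and 9.86 CPM in AireEEDdKO, so that groups with and without Aire did not overlap. The labels do not give the deleted part of Aire, so reads left in the knockouts may lie outside it. Eed was at 20.2 to 38.5 CPM in Ctrl and 34.7 to 47.8 CPM in AireKO, against 10.6 to 19.7 CPM in EEDcKO and 11.5 to 16.9 CPM in AireEEDdKO. Eed RNA was thus lowered but not lost, and wording such as without EED names the genotype, since these data do not measure EED protein. The difference of effects passed for neither gene, at -2.17 ± 0.67 (SE, adjusted p = 0.0983) for Aire and -0.54 ± 0.33 (SE, adjusted p = 0.44) for Eed. Ezh2, the catalytic subunit of PRC2, was at -0.52 ± 0.23 (SE, adjusted p = 0.263), and 0 of the 12 PRC2 subunits tested was called.

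Of 20196 genes tested, 253 were called for the difference of effects (1.25%), with edgeR's quasi-likelihood test, at a Benjamini-Hochberg adjusted p under 0.05 and a difference of at least 2-fold. A positive value means that loss of Aire lowered the gene less, or raised it more, in the absence of EED, and 163 genes (0.807%) were called so. A negative value was called for 90 genes (0.446%). The median of all genes tested was 0.04. Scaling by library size alone gave 177 positive and 53 negative calls, with an all-gene median of 0.12. Each effect of Aire alone called many more genes. With EED present, loss of Aire called 3311 genes (16.4%), 718 higher (3.56%) and 2593 lower (12.8%), or 366 higher and 3063 lower under library size alone. With EED absent it called 2696 genes (13.3%), 1007 higher (4.99%) and 1689 lower (8.36%). These 2 effects share no library, and Pearson's r between them across the genes tested was 0.747, a description only, since genes are not independent replicates. Loss of EED called 2802 genes (13.9%) with Aire present and 1913 (9.47%) with Aire absent.

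**Figure D1:**
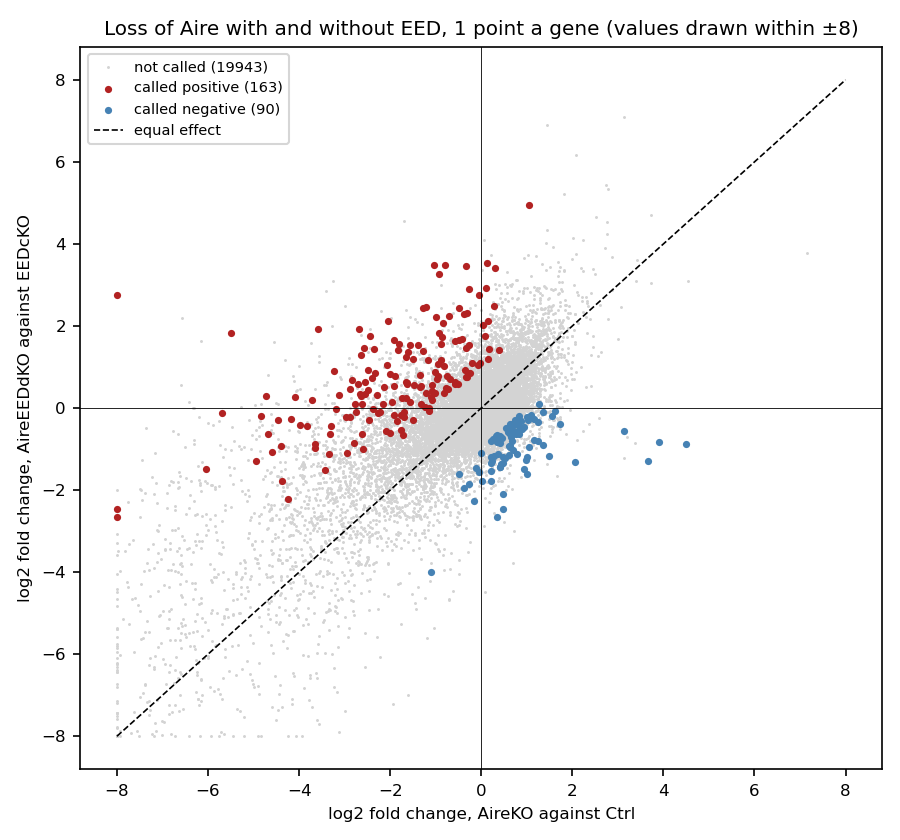
Each point is a tested gene, with the log2 fold change of AireKO against Ctrl on the x axis and of AireEEDdKO against EEDcKO on the y axis, drawn within ±8. The 163 positive genes lie above the dashed line of equal effect, 152 of them left of 0 on the x axis, and the 90 negative genes lie below the line.

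Most positive genes had their lowest group mean in AireKO, 132 of 163 (81%) against 30.8% of all genes tested. The other 31 (19%) had it in EEDcKO, against 30%. The highest mean was in AireEEDdKO for 89 (54.6%), in Ctrl for 45 (27.6%) and in EEDcKO for 26 (16%). Over all genes tested these shares were 20.6%, 18.5% and 31.6%. Loss of Aire was called lower for 108 of the positive genes with EED and for 8 without EED, where it was called higher for 47. Negative genes had the highest mean in EEDcKO for 62 of 90 (68.9%) and in AireKO for 27 (30%), against 31.6% and 29.4% of all genes tested. The lowest mean was in Ctrl for 54 (60%) and in AireEEDdKO for 36 (40%), against 21.9% and 17.3%. Loss of Aire was called higher for 21 of the negative genes with EED and lower for 32 without EED. The sign that chose each set fixes part of these counts, so they are descriptions. Taken in CPM without logarithms, the difference had the same sign for 153 positive and 90 negative genes.

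The count depended on single libraries. It was 43, 60 and 453 without AireEEDdKO replicates 1, 2 and 3, and 59, 123 and 59 without AireKO replicates 1, 2 and 3. It was 530, 99 and 92 without EEDcKO replicates 1, 2 and 3, and 132, 177, 83, 101 and 231 without Ctrl replicates 1 to 5. So it exceeded 253 in the fits without EEDcKO replicate 1 or AireEEDdKO replicate 3 and was lower in the other 12. Of the positive genes, 22 of 163 were called in all 14 fits and 68 in at least 7, and of the negative genes 6 of 90 and 28. Within the 7 deeper or the 7 shallower libraries, where AireKO and AireEEDdKO hold 1 library each among the deeper and EEDcKO 1 among the shallower, the edgeR fit called 1 gene each, and 2117 and 1560 genes had an unadjusted p under 0.05. The signs of all 253 genes were the same in both classes, which are parts of the data that chose them and give no independent support.

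**Figure D2:**
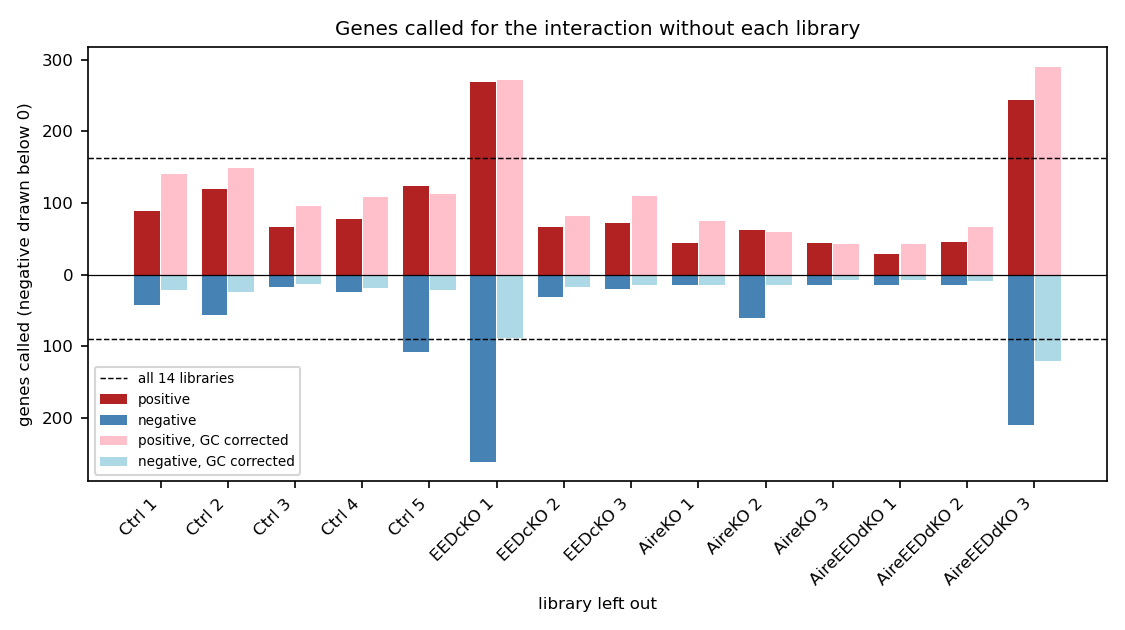
Bars give the number of genes called when the library on the x axis is left out, positive genes above 0 and negative genes below it, in strong colours as fitted and in pale colours with GC correction. Dashed lines mark the 163 positive and 90 negative calls of all 14 libraries. The fits without EEDcKO 1 or AireEEDdKO 3 gave the tallest bars, and those without AireEEDdKO 1 the shortest as fitted.

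A GC trend moved with the groups. Spearman's rho between a library's relative levels and transcript GC content was 0.254 to 0.585 in EEDcKO, 0.0385 to 0.251 in AireEEDdKO, -0.376 to -0.17 in AireKO and -0.46 to 0.018 in Ctrl. The difference of effects itself had a rho of -0.26 with GC content across 16099 protein-coding genes. The median GC content was 55.6% for negative, 48.2% for positive and 49% for all genes tested, and the GC-richest quintile of protein-coding genes held 44 negative and 16 positive calls. After each library's trend was removed with a smooth curve on GC content, a step chosen after seeing the data, rho was 0.01 and 201 genes (0.995%) were called, 170 positive (0.842%) and 31 negative (0.153%). Of the original calls, 141 positive and 28 negative genes remained.

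**Figure D3:**
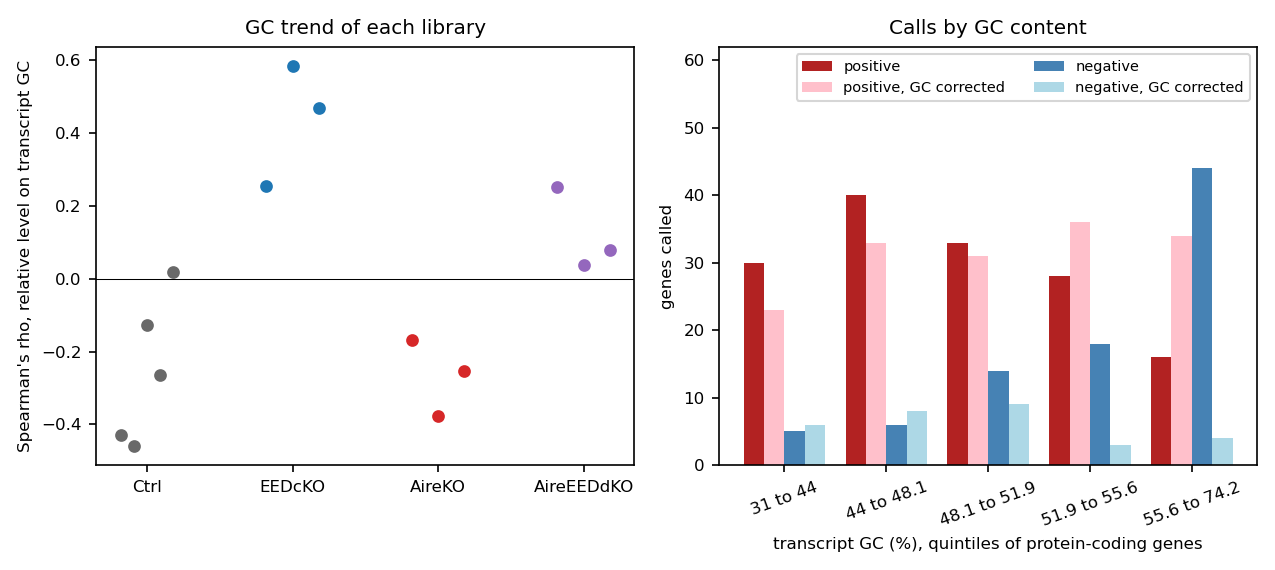
Left, each point is a library and the y axis is Spearman's rho between its levels relative to the other libraries and transcript GC content. Right, bars count called genes in quintiles of protein-coding genes by GC content, before and after correction. The 3 EEDcKO libraries lie highest, and the 44 negative calls of the GC-richest quintile became 4.

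The positive gene with the smallest p-value was Ryr2, the calcium release channel of heart muscle and brain (chromosome 13, 11553102 to 12106945, GRCm38). It was at 90.9, 76.8, 92.8, 65.7 and 58.1 CPM in Ctrl, 51.6, 58.1 and 50.8 CPM in EEDcKO, 13.6, 23.9 and 15.1 CPM in AireKO, and 50.8, 63 and 58.5 CPM in AireEEDdKO. The 3 AireKO libraries lay below all 11 others. The difference of effects was 2.25 ± 0.28 (SE, adjusted p = 0.000736), made of an Aire effect of -2.15 with EED and 0.1 without EED.

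Mef2c, a transcription factor of muscle, neural crest and B cells (chromosome 13, 83504034 to 83667080), showed no overlap between any pair of groups. It was at 11.7, 8.59, 8.18, 9.16 and 8.83 CPM in Ctrl, 26.4, 23.6 and 36.8 CPM in EEDcKO, 6.79, 1.37 and 3.36 CPM in AireKO, and 82.9, 84.2 and 60.5 CPM in AireEEDdKO. Loss of Aire lowered it with EED, by an effect of -1.29 (adjusted p = 0.00273), and raised it without EED, by 1.38 (adjusted p = 9.87e-05). The difference was 2.67 ± 0.36 (SE, adjusted p = 0.00164). None of the 7 other Mef2 factors and class IIa deacetylases tested was called, and their median was -0.09, or 0.04 with GC correction.

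The promoters of Mef2c and Ryr2 are shown because these genes lead the positive side and differ in CpG content. Each window runs from 250 bases before to 50 bases after the start given by RefSeq (GRCm38.p6), 5′ to 3′ on the gene's strand, with every CpG in capitals. The Mef2c window (chr13:83503784-83504083, plus strand) holds 1 CpG and the Ryr2 window (chr13:12106896-12107195, minus strand) holds 18.
Mef2c: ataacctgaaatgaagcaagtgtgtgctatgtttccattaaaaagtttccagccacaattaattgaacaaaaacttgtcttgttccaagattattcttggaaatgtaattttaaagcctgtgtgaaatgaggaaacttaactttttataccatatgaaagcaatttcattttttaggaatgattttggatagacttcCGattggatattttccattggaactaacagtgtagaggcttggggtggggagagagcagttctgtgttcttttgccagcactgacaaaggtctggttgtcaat
Ryr2: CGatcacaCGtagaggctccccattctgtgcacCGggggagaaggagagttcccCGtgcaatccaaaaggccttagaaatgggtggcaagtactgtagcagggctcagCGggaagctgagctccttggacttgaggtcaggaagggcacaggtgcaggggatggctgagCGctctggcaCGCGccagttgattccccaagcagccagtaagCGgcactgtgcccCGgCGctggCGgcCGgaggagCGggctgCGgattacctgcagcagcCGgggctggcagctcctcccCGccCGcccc

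Igf1, a secreted insulin-like growth factor, was at 96.5, 104, 137, 136 and 131 CPM in Ctrl, 290.0, 146 and 315 CPM in EEDcKO, 26.5, 21.2 and 21.9 CPM in AireKO, and 399, 565 and 282 CPM in AireEEDdKO. AireKO lay below and EEDcKO above Ctrl in every library, and the difference was 3.14 ± 0.51 (SE, adjusted p = 0.00378). Ndnf, a secreted neurotrophic factor, was at 29.9 to 62.7 CPM in the 11 other libraries and at 197, 181 and 108 CPM in AireEEDdKO (2.21 ± 0.36, adjusted p = 0.00378). Nrk, an X-linked kinase gene, was at 109, 76.8 and 113 CPM in AireEEDdKO against 13.7 to 28.6 CPM elsewhere, with a difference of 2.95 ± 0.49 (SE, adjusted p = 0.00562). AireEEDdKO lay above all other libraries for both genes, and for Ndnf the AireKO libraries, at 29.9, 30.7 and 31.7 CPM, lay below all others.

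**Figure D4:**
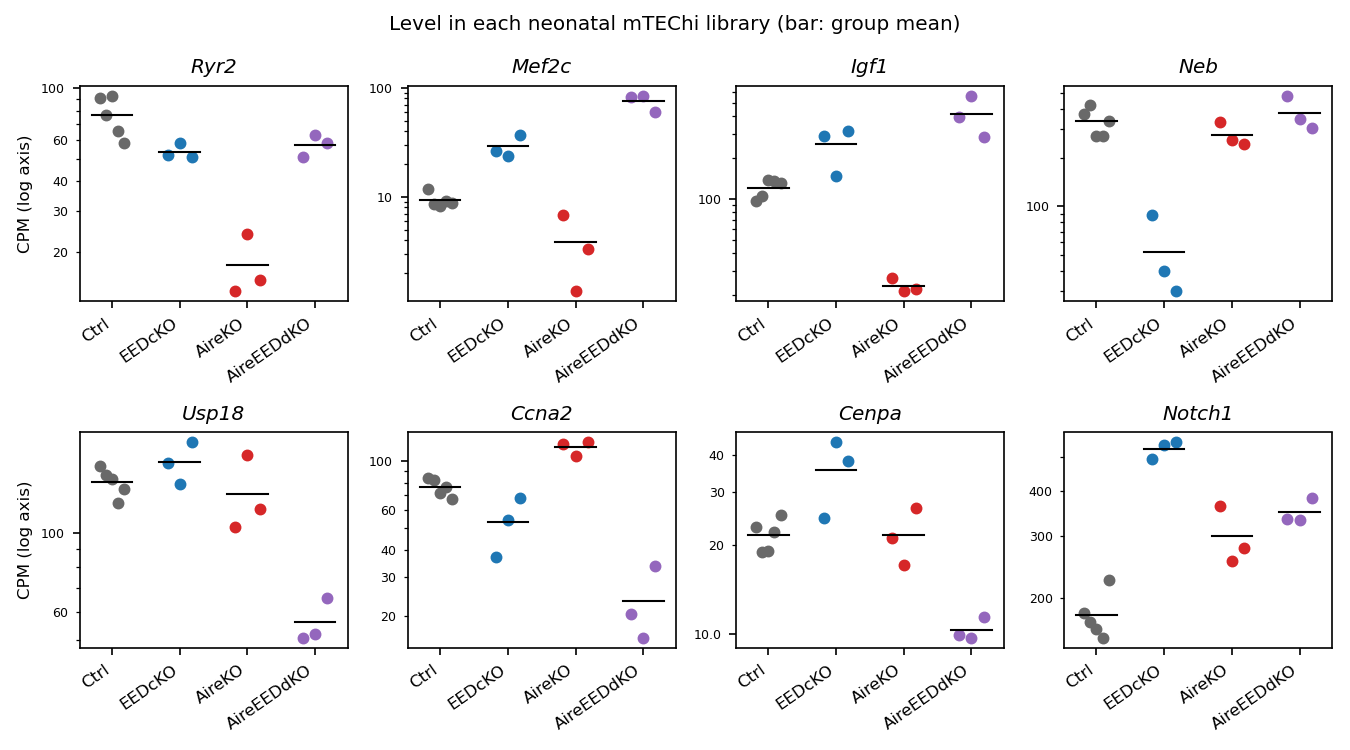
Each point is the CPM of a library on a log axis, for 8 genes called for the difference of effects, with a bar at each group mean. AireKO is low for Ryr2, Mef2c and Igf1 and EEDcKO for Neb in the top row, and in the bottom row AireEEDdKO is lowest for Usp18, Ccna2 and Cenpa while Ctrl is lowest for Notch1.

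All 26 tested members of the mimetic muscle list lay above 0, against 53.1% of all genes tested, with a median of 1.44. The list's median Aire effect was -0.23 with EED and 1.02 without EED. Summed over the list, levels were 3190 to 5535 CPM in Ctrl, 1335 to 2964 CPM in EEDcKO, 5506 to 8060 CPM in AireKO and 4797 to 8857 CPM in AireEEDdKO. By sum, AireKO thus lay mostly above Ctrl, unlike the median. The 2 called members were Neb and Myh8, beside 0.807% of all genes tested called positive. Neb, a giant protein of the thin filament, was at 270.5 to 421 CPM in Ctrl, 244 to 329.6 CPM in AireKO and 305 to 481 CPM in AireEEDdKO, but at 88.5, 39.7 and 29.9 CPM in EEDcKO. With EEDcKO as the group apart, its difference was 3.17 ± 0.54 (SE, adjusted p = 0.00697). Myh8, a perinatal myosin heavy chain, was at 25.7, 19.5, 19.6, 8.64 and 4.88 CPM in Ctrl, 6.76, 1.52 and 2.5 CPM in EEDcKO and 22.2, 21.8 and 17.5 CPM in AireEEDdKO, and had 0 counts in all 3 AireKO libraries. Against a floor of 3 counts over the AireKO group, Myh8 was at least 29.1-fold higher in Ctrl and at least 43-fold higher in AireEEDdKO, with an adjusted p of 0.0332 for the difference of effects. Neb was called in all 14 fits that left out a library and Myh8 in 5. Members that did not pass included the muscle regulators Myod1 (0.17, adjusted p = 0.964) and Myog (0.09, adjusted p = 0.972) and the sarcomere genes Actc1 (4.01, adjusted p = 0.0696) and Ttn (1.22, adjusted p = 0.182).

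Smyd1, a methyltransferase of sarcomere assembly that the list does not hold, was at 13.4, 22.3, 20.7, 16.5 and 15.8 CPM in Ctrl, 11.1, 14.5 and 9.67 CPM in EEDcKO, 0.679, 0.683 and 0.841 CPM in AireKO, and 15.2, 5.73 and 8.59 CPM in AireEEDdKO. AireKO lay below all other libraries and the difference was 4.17 ± 0.61 (SE, adjusted p = 0.00243). Smyd1 overlaps Krcc1 on the opposite strand, and counting ignored strand. Sox6, a regulator of muscle fibre type and cartilage, was at 16 to 23.7 CPM in Ctrl and 3.36 to 4.76 CPM in AireKO, against 6.72 to 14.1 CPM in EEDcKO and 9.23 to 14.6 CPM in AireEEDdKO (2.62 ± 0.51, adjusted p = 0.0166), and was the only one of 16 Sox factors called, with a list median of -0.7, or -0.29 with GC correction. Among 19 genes of calcium release and reuptake, which do not include Ryr2, none was called and the median was 0.6.

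Cilium genes were called singly. Pkhd1, the fibrocystin gene of the primary cilium, was at 56.9, 55.6, 60, 46.3 and 47.8 CPM in Ctrl, 27, 17.8 and 44.9 CPM in EEDcKO, 8.15, 4.1 and 8.41 CPM in AireKO, and 53.1, 26.9 and 43 CPM in AireEEDdKO, with AireKO below all others and a difference of 3.34 ± 0.5 (SE, adjusted p = 0.00296). Dnah9, a heavy chain of outer dynein arms, had a mean of 142 ± 12 CPM in Ctrl (SD, n = 5), 85.7 ± 15.1 in EEDcKO, 67.6 ± 12.7 in AireKO and 127 ± 18.9 in AireEEDdKO (SD, n = 3 each), and a difference of 1.65 ± 0.26 (SE, adjusted p = 0.00378). Cfap44, another component of motile cilia, passed at 2.78 ± 0.71 (SE, adjusted p = 0.0468), but not with GC correction (adjusted p = 0.052). With 1 library left out, Cfap44 was called in 2 of 14 fits and Dnah9 in 14. Dnah9 and Cfap44 were the called 2 of 20 ciliated list members, beside 0.807% of all genes tested called positive. The list median was 0.48, while Foxj1, the master regulator of motile cilia, was at -1.4, adjusted p = 0.108. Of the tuft list 1 of 16 was called, the kinase gene Dclk1. It was at 45.3 to 82 CPM in Ctrl, 190, 147 and 162 CPM in EEDcKO, 38.1, 26 and 24.7 CPM in AireKO, and 272, 206 and 166 CPM in AireEEDdKO. EEDcKO and AireEEDdKO overlapped, and the Aire effect was -1.03 with EED and 0.37 without EED. The difference was 1.4 ± 0.34 (SE, adjusted p = 0.0398, or 0.0563 with GC correction), called in 4 of the 14 fits that left out a library. No member of the microfold, endocrine, enterocyte, ionocyte or goblet lists was called, with medians of -0.25, 0.47, 0.07, 0.37 and 0.04. With GC correction these were -0.14, 0.46, 0.29, 0.52 and 0.32, and the tuft median was 0.07 before and 0.22 after it.

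Glutathione transferases conjugate glutathione to drugs and lipid products. 18 of 21 tested members of the list lay above 0, beside 53.1% of all genes tested, with a median of 0.77. Gstt1 and Gstm2 were called, beside 0.807% of all genes tested called positive. Gstt1 was at 26.4 to 44.7 CPM in Ctrl, 30.2 to 45.8 CPM in EEDcKO and 27.4 to 40.9 CPM in AireEEDdKO against 6.12, 7.51 and 8.41 CPM in AireKO (2.14 ± 0.46, adjusted p = 0.0258). Gstm2 had a difference of 2.92 ± 0.58 (SE, adjusted p = 0.0175). Gstt3, the neighbour of Gstt1 on chromosome 10 that the list leaves out, was at 51.3, 39, 47.7, 47.9 and 53.4 CPM in Ctrl, 38.1, 32.1 and 31.8 CPM in EEDcKO, 20.4, 23.2 and 28.9 CPM in AireKO, and 61.3, 60.2 and 45.8 CPM in AireEEDdKO. Its AireKO libraries were again the lowest of the 14, and the difference was 1.68 ± 0.24 (SE, adjusted p = 0.00243). Near-identical paralogs in this family can share reads, so levels of single members are uncertain.

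Imprinted genes were called at 5 of 23 on the positive side and 0 on the negative side, beside 0.807% and 0.446% of all genes tested. Of the 5, 4 lie in a domain of chromosome 12 that expresses the Notch-like protein Dlk1 and the retrotransposon-derived Rtl1 from the paternal copy and the long noncoding RNAs Rian and Mirg from the maternal copy. The domain spans 109452823 (start of Dlk1) to 109749460 (end of Mirg) on chromosome 12. Rian was at 30.1, 34.4, 28.1, 20.4 and 30.7 CPM in Ctrl, 125, 77 and 49.3 CPM in EEDcKO, 19.7, 9.56 and 13.7 CPM in AireKO, and 564, 318 and 258 CPM in AireEEDdKO. No pair of groups overlapped, and the difference was 3.2 ± 0.5 (SE, adjusted p = 0.00319). Mirg, at 75.3, 41.2 and 41 CPM in AireEEDdKO against 2.04 to 19 CPM elsewhere, had 2.67 ± 0.66 (SE, adjusted p = 0.0415). Rtl1 was at 4.46 to 9.76 CPM in Ctrl, 38.7, 25.6 and 10.3 CPM in EEDcKO, 3.4, 0 and 2.52 CPM in AireKO, and 123, 53.3 and 38.2 CPM in AireEEDdKO. Its difference was 3.36 ± 0.77 (SE, adjusted p = 0.0332). Rtl1 has an antisense transcript, which counting without strand cannot separate. Dlk1 was at 21.8, 22.3, 17.5, 21.5 and 29.3 CPM in Ctrl, 103, 56.2 and 128 CPM in EEDcKO, 2.72, 0 and 1.4 CPM in AireKO, and 116, 53.9 and 45.8 CPM in AireEEDdKO. Its levels in AireEEDdKO overlapped those in EEDcKO, and its difference was 3.57 ± 0.87 on the log2 scale (adjusted p = 0.0393) but -2.6 CPM without logarithms. Meg3, a noncoding RNA of the same domain, was at 1.77, adjusted p = 0.0618, and the zinc finger gene Zim1 of chromosome 7 was the remaining call (3.93 ± 0.92, adjusted p = 0.0356). The median of the whole list was 0.21. Most of these calls were unsteady, since of the 14 fits that left out a library Rian was called in 14, Zim1 in 6, Rtl1 in 5, Dlk1 in 3 and Mirg in 2.

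Developmental transcription factors, classic targets of Polycomb, were called in small numbers. Of 25 Hox genes tested, 19 lay above 0 with a median of 1.36. Hoxb9 (3.48 ± 0.86, adjusted p = 0.0425) and Hoxc10 (2.97 ± 0.73, adjusted p = 0.0415) were called positive, beside 0.807% of all genes tested. Hox levels were low, with Hoxc10 from 0.841 to 6.55 CPM. Pax3, a regulator of neural crest and muscle precursors, was at 5.11 to 10.6 CPM in Ctrl, 10.4, 13.7 and 17.2 CPM in EEDcKO, 1.36, 0 and 0.841 CPM in AireKO, and 21, 20.6 and 11.5 CPM in AireEEDdKO (3.44 ± 0.78, adjusted p = 0.0327). AireKO lay below all other libraries. It was the only one of 31 Pax, sine oculis, T-box and Gata factors called, and their median was -0.21. These factors were called in 4, 3 and 5 of the 14 fits that left out a library, in the order Hoxb9, Hoxc10 and Pax3.

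Tns1, which links integrins to actin, was at 87, 91.7, 124, 153 and 106 CPM in Ctrl, 141, 174 and 214 CPM in EEDcKO, 11.6, 11.6 and 10.6 CPM in AireKO, and 97.5, 79.1 and 68.1 CPM in AireEEDdKO. AireKO lay below all others and AireEEDdKO below EEDcKO, so loss of Aire lowered Tns1 in both backgrounds, by -3.34 with EED and -1.13 without EED. The difference was 2.21 ± 0.34 (SE, adjusted p = 0.00315). Of 61 serpins and kallikreins, 3 were called positive, beside 0.807% of all genes tested. They were the secreted protease Klk1b16 (3.24 ± 0.78, adjusted p = 0.038), the protease inhibitor Serpinb1b (2.7 ± 0.67, adjusted p = 0.043, or 0.0604 with GC correction) and the antiangiogenic factor Serpinf1 (2.09 ± 0.53, adjusted p = 0.0433). In the 14 fits that left out a library, Klk1b16 was called in 3, Serpinb1b in 2 and Serpinf1 in 3. The list median was 0.37. Reads of close paralogs in the kallikrein and serpin clusters may be split.

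On the negative side, the genes of dividing cells lay low together. All 28 tested members of the mitosis and kinetochore list were below 0, with a median of -1.18, where 53.1% of all genes tested lay above 0. Of the 28, 7 were called, beside 0.446% of all genes tested, namely Ccna2, Cdk1, Cenpf, Cdc20, Ube2c, Tpx2 and Plk1. The list's median Aire effect was 0.4 with EED and -0.81 without EED. Ccna2, the cyclin of S phase and mitotic entry, was at 83.7, 81.9, 72, 76.2 and 67.4 CPM in Ctrl, 36.9, 54 and 68.3 CPM in EEDcKO, 119.6, 105 and 121 CPM in AireKO, and 20.4, 16 and 33.7 CPM in AireEEDdKO. AireKO lay above and AireEEDdKO below all other libraries, and the difference was -1.76 ± 0.33 (SE, adjusted p = 0.0123). Ccna2 overlaps Exosc9 on the opposite strand. Cdk1, the kinase that drives mitosis, was at 80.9 to 108 CPM in Ctrl, 37.5 to 68.6 CPM in EEDcKO, 135 to 168 CPM in AireKO and 16 to 43.6 CPM in AireEEDdKO (-1.72 ± 0.36, adjusted p = 0.0245). Cenpf, a kinetochore protein, had -1.86 ± 0.4 (SE, adjusted p = 0.0258), and Cdc20, the activator of the anaphase-promoting complex, -2.0 ± 0.45 (SE, adjusted p = 0.0317), or -1.68 with GC correction.

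The promoters of Cdk1, Cdc20 and Cenpf are shown because dividing-cell genes are known to carry CCAAT boxes and a cell cycle homology region. The letters CCAAT and TTTGAA, each searched on both strands, are in capitals, and no match overlapped the other motif. The windows are chr10:69352863-69353162, minus strand for Cdk1, chr4:118437294-118437593, minus strand for Cdc20 and chr1:189688037-189688336, minus strand for Cenpf. TTTGAA stood 71 and 15 bases before the start in Cdk1, 18 bases before it in Cdc20 and 2 bases after it in Cenpf.
Cdk1: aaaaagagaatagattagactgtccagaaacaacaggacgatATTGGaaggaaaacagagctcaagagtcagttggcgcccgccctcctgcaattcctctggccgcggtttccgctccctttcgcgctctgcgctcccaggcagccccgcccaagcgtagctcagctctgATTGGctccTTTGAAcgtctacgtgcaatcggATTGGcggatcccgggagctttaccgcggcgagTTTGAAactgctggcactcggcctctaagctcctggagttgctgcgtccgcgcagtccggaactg
Cdc20: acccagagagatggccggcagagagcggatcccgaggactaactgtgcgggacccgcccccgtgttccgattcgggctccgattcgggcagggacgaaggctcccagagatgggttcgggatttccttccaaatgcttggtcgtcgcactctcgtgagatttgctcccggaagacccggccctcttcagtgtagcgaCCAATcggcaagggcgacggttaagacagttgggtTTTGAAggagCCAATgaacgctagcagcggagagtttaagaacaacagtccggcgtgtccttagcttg
Cenpf: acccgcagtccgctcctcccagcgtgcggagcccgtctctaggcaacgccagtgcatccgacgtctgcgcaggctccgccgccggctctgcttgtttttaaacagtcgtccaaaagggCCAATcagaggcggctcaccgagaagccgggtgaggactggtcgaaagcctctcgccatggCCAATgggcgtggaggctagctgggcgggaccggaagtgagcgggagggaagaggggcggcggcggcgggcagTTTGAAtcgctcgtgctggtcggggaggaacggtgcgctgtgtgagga

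Of 23 mitosis list members with a window, 19 held CCAAT (82.6%) and 16 held TTTGAA (69.6%), against 37.9% and 13% of all 13510 promoters. Of 70 negative genes with a window, 23 held CCAAT and 18 held TTTGAA (32.9% and 25.7%). The 16 mitosis members with TTTGAA had a median difference of -1.22 and the 7 without it -1.11. A match describes letters in the window and is not a measured site.

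Other genes of dividing cells gave like values. Cenpa, the centromeric histone that the list leaves out, was at 22.9, 18.9, 19.1, 22 and 25.1 CPM in Ctrl, 24.6, 44 and 38.1 CPM in EEDcKO, 21.1, 17.1 and 26.6 CPM in AireKO, and 9.93, 9.74 and 11.5 CPM in AireEEDdKO. AireEEDdKO lay below all other libraries and the difference was -1.81 ± 0.33 (SE, adjusted p = 0.0121). All 17 DNA replication genes tested were below 0, with a median of -0.77. The licensing factor Cdt1 (-2.24 ± 0.51, adjusted p = 0.0327, or -1.82 with GC correction) and the ribonucleotide reductase subunit Rrm2 (-1.69 ± 0.41, adjusted p = 0.0415) were called, beside 0.446% of all genes tested called negative. With GC correction the medians were -1.2 for mitosis and -0.77 for replication, with 5 and 2 calls, and Ube2c (adjusted p = 0.0544) and Plk1 (adjusted p = 0.0774) no longer passed. Single calls were unsteady over libraries. Of the 14 fits that left out a library, Ccna2 was called in 14, Cenpf in 9, Cdk1 in 7, Cdc20 in 6 and Plk1 in 2.

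Interferon-stimulated genes, which cells induce in defence against viruses, also lay low, with 29 of 31 tested members below 0 and a median of -0.69. Their median Aire effect was -1.13 with EED and -1.95 without EED. The called members were Stat2 and Ifit1, beside 0.446% of all genes tested called negative. Stat2 was at 90.5 to 108 CPM in Ctrl, 173, 123 and 199 CPM in EEDcKO, 64.6, 78.5 and 69.5 CPM in AireKO, and 49.6, 52.7 and 57.9 CPM in AireEEDdKO (-1.12 ± 0.25, adjusted p = 0.0315). AireEEDdKO was the lowest group and EEDcKO the highest, without overlap with Ctrl. Ifit1, which binds foreign RNA, was at 53.7, 34.9 and 39.1 CPM in AireEEDdKO against 66.7 to 112 CPM in AireKO and 91.8 to 223 CPM in EEDcKO (-1.58 ± 0.38, adjusted p = 0.0379). Both passed with GC correction, when the list median was -0.55. Of the 14 fits that left out a library, Stat2 was called in 7 and Ifit1 in 3, or in 2 and 3 with GC correction. Usp18, the protease that removes ISG15 and dampens interferon signalling, is not on the list. It was at 154, 145, 141, 121 and 133 CPM in Ctrl, 157, 137 and 179 CPM in EEDcKO, 104, 165 and 117 CPM in AireKO, and 50.8, 52.1 and 65.9 CPM in AireEEDdKO. AireEEDdKO lay below every other library, and the difference was -1.36 ± 0.21 (SE, adjusted p = 0.00315).

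The core of the interferon-stimulated response element, searched as GAAANNGAAA on both strands, was in 13 of 22 interferon list promoters (59.1%), against 3.06% of all promoters, 3 of 70 negative and 7 of 123 positive genes. Ifit1 (chr19:34640639-34640938, plus strand) is shown because it was called and holds the core at 2 places on the opposite strand, 104 and 85 bases before the start, in capitals.
Ifit1: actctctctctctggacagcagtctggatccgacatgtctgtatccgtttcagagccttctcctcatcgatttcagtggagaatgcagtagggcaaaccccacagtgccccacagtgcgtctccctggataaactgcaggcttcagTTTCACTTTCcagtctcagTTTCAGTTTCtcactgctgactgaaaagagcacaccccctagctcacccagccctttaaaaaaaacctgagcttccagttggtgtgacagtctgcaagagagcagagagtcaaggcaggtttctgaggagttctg

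Further negative genes were high in EEDcKO. Notch1, the receptor of a short-range signalling pathway, was at 181, 171, 164, 154 and 225 CPM in Ctrl, 494, 539 and 549.9 CPM in EEDcKO, 364, 255 and 277 CPM in AireKO, and 333, 333 and 382 CPM in AireEEDdKO. Ctrl was the lowest group and EEDcKO the highest, without overlap with the other groups. The difference was -1.33 ± 0.2 (SE, adjusted p = 0.00296), or -0.99 with GC correction, just under 2-fold. None of 23 other Notch pathway genes tested was called, and their median was -0.2, turning to 0.15 with GC correction. Trp53, the tumour suppressor, was at 68.6, 76.8, 68.7, 62.8 and 80.6 CPM in Ctrl, 111, 148 and 143 CPM in EEDcKO, 106, 96.3 and 108 CPM in AireKO, and 96.3, 88.8 and 104 CPM in AireEEDdKO. Here too Ctrl was lowest and EEDcKO highest without overlap, with a difference of -1.01 ± 0.19 (SE, adjusted p = 0.0126). With GC correction it was -0.83, under 2-fold and no longer called. Efs, a scaffold protein of adhesion signalling, was at 29.6, 23.5, 26.2, 24.9 and 30.9 CPM in Ctrl, 52.8, 97.6 and 93.9 CPM in EEDcKO, 37.4, 31.4 and 39.5 CPM in AireKO, and 22.2, 32.1 and 40.4 CPM in AireEEDdKO (-1.79 ± 0.34, adjusted p = 0.0126, or -1.31 with GC correction). EEDcKO lay above all other libraries.

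Mllt1, a transcription elongation factor (-1.24 ± 0.23, adjusted p = 0.0126), and Pml, which forms nuclear bodies (-1.4 ± 0.28, adjusted p = 0.0182), also had their highest mean in EEDcKO. With GC correction Mllt1 was at -0.77, under 2-fold and no longer called, and Pml at -1.13. Pgls, an enzyme of the pentose phosphate pathway (-1.08 ± 0.21, adjusted p = 0.0175), did not pass with GC correction (-0.72, adjusted p = 0.0858). Bmp6, a secreted growth factor, had -1.85 ± 0.37 (SE, adjusted p = 0.0182), or -1.48 with GC correction, and Cmss1 -1.56 ± 0.31 (SE, adjusted p = 0.0175). Pgls, Bmp6 and Cmss1 overlap Fam129c, Txndc5 and Filip1l in the annotation. Slc17a8, a vesicular glutamate transporter, was at 17.4 to 25.1 CPM in Ctrl, 15.4, 12.6 and 11.2 CPM in EEDcKO, 15.6, 6.83 and 8.13 CPM in AireKO, and 1.17, 1.15 and 0.318 CPM in AireEEDdKO (-2.88 ± 0.58, adjusted p = 0.0182). Krtdap, a protein of differentiating keratinocytes, was at 1.17, 6.3 and 10.5 CPM in AireEEDdKO against 20 to 43 CPM elsewhere (-2.11 ± 0.53, adjusted p = 0.0442, or 0.0531 with GC correction). For both, AireEEDdKO lay below all other libraries. Krtdap was the only one of 21 keratinocyte list members called, with a list median of -0.46. It was called in 3 of the 14 fits that left out a library.

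**Figure D5:**
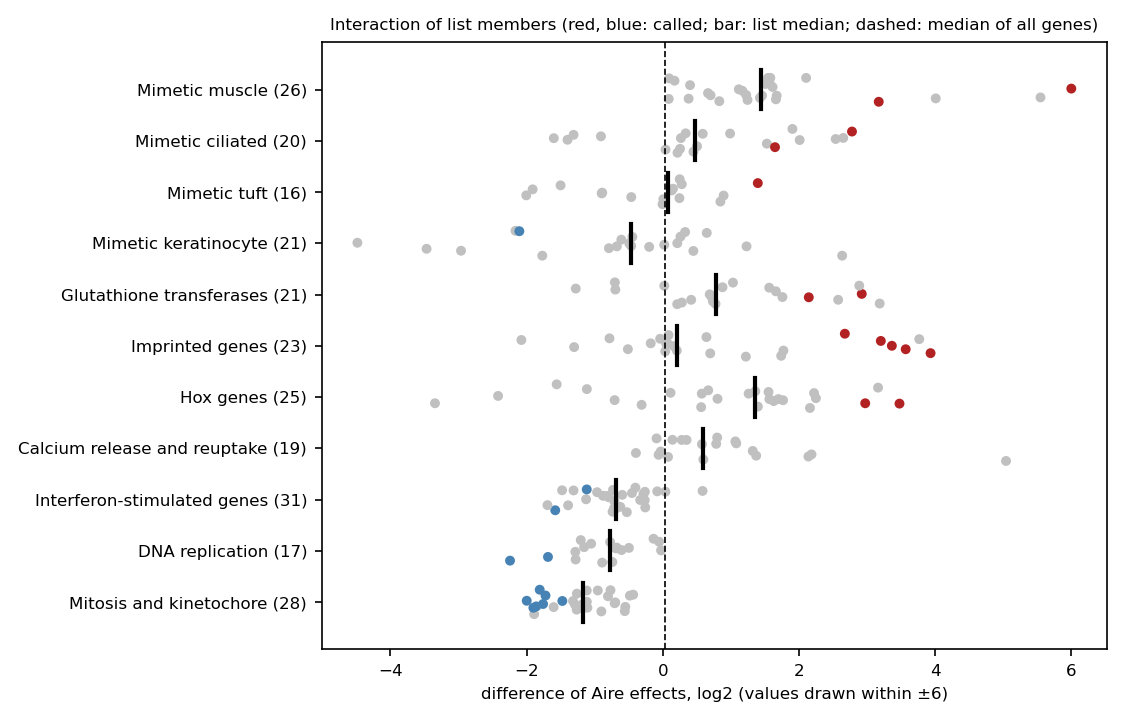
Each point is a tested member of the list on the y axis, with the number tested in parentheses, and the x axis is the difference of Aire effects on the log2 scale, drawn within ±6. Red and blue points were called, black bars are list medians and the dashed line is the median of all genes tested. The 26 muscle points lie above 0 and the 28 mitosis points below it. The Myh8 point, at the right edge, is a fitted value against a group at 0 counts and not a measured size.

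Genes lower without Aire in adult mTEChi, here the adult Aire-induced set, were read in the neonates. The name does not make each of them a direct target. The paper states that such bulk differences can also come from an altered mTEC composition. This set holds the 3534 genes called lower in adult AireKO against WT mTEChi (18.3% of 19310), from libraries that the difference of effects does not use, and 3337 of them were tested in the neonates. Of these, 107 were called positive (3.21%) and 4 negative (0.12%), beside 0.807% and 0.446% of all genes tested. The median difference was 0.57, against 0.04 over all genes tested and -0.03 over genes tested in the adults but outside the set, and 72.7% of members lay above 0. By size of the adult effect, the median was 0.35 for 1517 genes lowered 2- to 4-fold, 0.7 for 695 lowered 4- to 8-fold and 1.03 for 1125 lowered more. In the same order, the median neonatal Aire effects were -0.81, -1.8 and -3.61 with EED and -0.47, -0.99 and -2.52 without EED. The share called positive was 2.9%, 4.6% and 2.76%, so it did not rise steadily with the adult effect. Age and sex differed between the adult mTEChi groups that define the set. The adult AireKO mice were all male, and the WT mice were male or female. Their ages, in weeks, overlapped, but the youngest mice were all WT and the oldest all AireKO. How far age or sex shaped the set was not tested.

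Loss of Aire had a median effect on the set of -1.63 with EED and -0.96 without EED, and 1917 members were called lower in the first comparison and 1152 in the second. The share of counts that fell on the set was 6.88% to 7.27% among Ctrl libraries and 6.91% to 8.07% among EEDcKO libraries. It was 3.26% to 3.61% for AireKO and 4.42% to 5.03% for AireEEDdKO. AireKO and AireEEDdKO overlapped neither each other nor the groups with Aire. Many members were scarce, and for the 1955 whose mean count exceeded 3 in every group the median was 0.41. Without genes that separated the 2 kinds of adult library, of which 6 held no mitochondrial counts, it was 0.59. Named members were Ryr2, Mef2c, Smyd1, Pkhd1, Tns1, Rian, Ndnf, Igf1, Nrk, Neb, Sox6, Gstm2, Pax3, Myh8, Rtl1, Zim1, Klk1b16, Dlk1, Dclk1, Hoxb9 and Cfap44 among the positive genes, and Cenpa, Cenpf and the cleavage furrow gene Anln (-1.55 ± 0.36, adjusted p = 0.0358) among the negative ones.

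Promoters of positive genes were poorer in CpG. The ratio of observed to expected CpG had a median of 0.464 over 123 positive genes with a window, 0.786 over 70 negative genes and 0.703 over all promoters. It exceeded 0.6 in 40.6% of positive, 71.4% of negative and 61.1% of all promoters. The adult Aire-induced set, to which 107 of the 163 positive genes belong, had 35.8%. The MEF2 box CTANNNNTAG was in 1 of 123 positive promoters (0.813%) and 3.08% of all, and TATAAA in 10.6% of positive and 8.89% of all, both strands searched.

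Markers of other cell types, which a CD45-negative, EpCAM-positive and Ly51-negative gate is meant to remove, were read beside these results. None of the 11 thymocyte, 7 B cell, 15 myeloid, 14 mesenchyme, 7 smooth muscle and pericyte, 10 endothelium, 2 erythroid or 9 cortical epithelial genes tested was called. Medians were 1.27 for mesenchyme, 0.67 for B cells, 0.61 for thymocytes, 0.52 for cortical epithelium, 0.43 for myeloid cells, 0.31 for endothelium, 0.06 for smooth muscle (0.53 with GC correction) and -1.32 for erythroid cells. Mesenchyme genes summed to 523 to 728 CPM in Ctrl, 817 to 1127 CPM in EEDcKO, 570.5 to 801 CPM in AireKO and 739.7 to 983 CPM in AireEEDdKO. B cell genes summed to 97.4 to 129.6, 124 to 146, 92.9 to 115 and 158 to 245 CPM in the same order. No member of these lists was at 0 counts over all 14 libraries, and their part in the results was not tested. The 8 epithelial genes that check the sort summed to 1529 to 1833 CPM in Ctrl, 1508 to 1928 CPM in EEDcKO, 1648 to 2367 CPM in AireKO and 1500 to 1991 CPM in AireEEDdKO.

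The remaining lists gave medians from -0.53 (CDK inhibitors) to 0.6 (milk proteins) and no call. With GC correction CDK inhibitors were at -0.1, collagens were at 0.6 instead of 0.28 with 1 positive call (Col27a1), and the medians of keratins (-0.18) and of mature mTEC and MHC class II genes (-0.06) turned to 0.11 and 0.07. The lists were PRC1 subunits, mature mTEC and MHC class II genes, mTEClo and basal genes, keratins, collagens, cytochromes P450, CDK inhibitors and milk proteins. Age also differed between the mTEChi groups, since no Ctrl or EEDcKO mouse was 4 days old and no AireKO or AireEEDdKO mouse was under 4 days. With an age class in the model 392 genes were called, including 162 of the 163 positive and 86 of the 90 negative genes. Sex differed too, since EEDcKO libraries were female or pooled, AireKO and AireEEDdKO libraries male or pooled, and Ctrl libraries female, male or pooled. With a sex class 192 genes were called, including 120 of the 163 positive and 43 of the 90 negative genes.

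The step from EEDcKO to AireEEDdKO was also measured in neonatal mTEClo, the cells with low MHC class II, whose libraries are not in the difference of effects but share its estimate of spread. Fitted on the 14 mTEChi libraries alone, the difference was called for 393 genes. In mTEClo, 1071 genes (5.3%) were called, 697 higher (3.45%) and 374 lower (1.85%). Of the 163 positive genes 29 were called higher and 6 lower, and 56.4% were above 0, beside 47.4% of all genes tested. Of the 90 negative genes 6 were called lower and 0 higher, and 57 (63.3%) were above 0. Usp18, Ifit1 and Stat2 were among those 6. Usp18 was at 48.2, 49.7 and 51.4 CPM in mTEClo AireEEDdKO and 106, 128, 133 and 108 CPM in mTEClo EEDcKO, with a log2 fold change of -1.25 (adjusted p = 4.38e-05), while Ifit1 was at -2.46 (adjusted p = 3.28e-05) and Stat2 at -1.23 (adjusted p = 0.000166). Values in both groups did not overlap for Usp18. Over whole lists, the mTEClo step had a median of -0.96 for mitosis, with 13 of 28 called lower and 0 higher. It was -1.47 for interferon-stimulated genes, with 25 of 31 lower and 0 higher, and 1.53 for mimetic muscle, with 16 of 26 higher and 0 lower. In mTEChi the same step had medians of -0.81, -1.95 and 1.02. DNA replication was at -0.44 in mTEClo, with 0 of 17 called. AireKO mTEClo were not analysed here, so the difference of effects was not formed in mTEClo. Age and sex differed between the mTEClo groups as well. The EEDcKO libraries covered the ages of the AireEEDdKO libraries and also younger mice. They were female or pooled, and the AireEEDdKO libraries were female or male.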

How the data were processed

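RNA was measured in 14 neonatal mTEChi libraries of 4 genotypes made by full-length random-primed RNA-seq. According to the study's methods and processing notes, the authors trimmed reads with fastp 0.20.0, mapped them to mm10 with STAR 2.7.3a, filtered with SAMtools 1.9, removed duplicates with Picard 2.21.1 and counted reads per gene with HTSeq 0.11.2 regardless of strand. The values used are the whole-number counts that the authors deposited, without normalization. Without molecular identifiers, duplicate removal can lower abundant genes most, and ignoring strand mixes or drops reads of overlapping genes.

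Groups came from the labels. A symbol was found for 99.6% of 55471 genes listed, in GENCODE annotation of GRCm38. Genes passing filterByExpr were fitted with edgeR 4.0.16 (R 4.3.3, TMM scaling, prior count 0.125) over all 24 neonatal libraries in 7 groups, with 17 residual degrees of freedom, and tested with the 2-sided quasi-likelihood F-test and Benjamini-Hochberg adjustment over 20196 genes. A call needs an adjusted p under 0.05 and a difference of at least 2-fold, and errors of log2 values are SE. The common dispersion was 0.0392. The script was tested on simulated data. Libraries may be single mice or pools, so p-values measure the spread between libraries only. Floors at 3 counts cover counting error only.

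Members, lists and tests were chosen with earlier results of these data known. Named genes are Aire, Eed, Ezh2, Ezh1 and Suz12, in each direction the 12 smallest p-values among called genes with an established symbol and at least 10 CPM in the highest group, called list members, and up to 5 called genes per direction of the adult set, which came from edgeR on 23 adult libraries. Other genes named are uncalled list members, chosen after their values were seen. Alternatives were other scalings, filters and prior counts, the 14 libraries alone, replicate, age or sex terms, 6-day-old mice only, DESeq2 1.42.0, limma 3.58.1 voom with quality weights and each library left out. GC correction (lowess, span 0.3, per library, as an offset) and depth classes were chosen after seeing the data. Same-numbered AireKO and AireEEDdKO libraries deviated together (correlations of 0.193, 0.194 and 0.284 over 14304 genes) and share age and sex. Unlike-numbered libraries of these groups had -0.164 to -0.0549. EEDcKO replicate 2 and Ctrl replicate 4 were as close to AireEEDdKO replicate 3 (0.256 and 0.255), so such values do not establish a pairing. Same-numbered Ctrl and EEDcKO libraries had 0.204, -0.191 and 0.0138, and only replicate 1 has the same age in both. Their age-matched libraries correlated at 0.0977 to 0.223.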

Additional observations from a re-analysis of the deposited data

Results flagged for a closer look

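The difference of Aire effects between mice with and without EED was itself the tested quantity, and 253 genes passed it, 163 positive and 90 negative (edgeR's quasi-likelihood test, Benjamini-Hochberg adjustment over all genes). In Ctrl, the group of 5 libraries, 1 value stood far from the others for 2 of the 57 named genes tested. Mef2c was at 11.7 CPM in Ctrl replicate 1 and at most 9.16 CPM in the other 4, and Cdc20 was at 64.4 CPM in Ctrl replicate 4 and at most 54.4 CPM in the other 4. Chance gives about 1 such value in 20 groups.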

How the results depend on the processing

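The 253 calls for the difference of effects (163 positive, 90 negative) became 455 (292 and 163) with no filter on low counts, 393 (293 positive) in the 14 libraries alone, 392 (152 negative) with an age class, 386 (256 positive) by DESeq2 and 464 (251 and 213) by limma voom. In 6-day-old mice, with 1 or 2 libraries a group, edgeR gave 0 in total, 0 positive and 0 negative calls, and 1464 genes at an unadjusted p under 0.05. Negative calls numbered 53 under library size alone, 49 with a sex class and 144 with no minimum change. After seeing the data, GC correction (31 negative) was also run with the replicate block (122, of them 98 and 24) and in the 14 libraries alone (292 and 53). The 7 deeper libraries alone gave 1 call (1 positive, 0 negative) and the 7 shallower ones 1 (0 and 1), with or without GC correction, and 2117 and 1560 genes at an unadjusted p under 0.05 without it. A lone library in these fits was assumed to vary like the other groups. Leaving out 1 library gave 43 to 530 calls, 29 to 290 positive and 7 to 261 negative, GC-corrected fits included. The causes of these changes were not tested.

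Genes called for loss of Aire with EED numbered 794 in 6-day-old mice, 1545 in the deeper and 1349 in the shallower libraries (GC-corrected 1574 and 1341) and 5816 with no minimum change. Loss of Aire without EED gave 680, 764, 1028, 360, 1026 and 4544 in the same order, and 1581 to 3011 in fits without 1 library, GC-corrected fits included. Loss of EED with Aire gave 1031 in 6-day-old mice, 1827 with GC correction, 1721 with GC correction and block, 1836 with GC correction in the 14 libraries, 804 in the shallower libraries, 1619 and 496 with GC correction in the deeper and shallower ones, 6592 with no minimum change, and 1459 to 3331 in fits without 1 library, GC-corrected fits included. Loss of EED without Aire gave 760 in 6-day-old mice, 443 in the deeper libraries, 460 with GC correction there and 3400 with no minimum change.

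The median of the adult Aire-induced set stayed above 0 in all 51 alternatives. It was 0.45 with a prior count of 2, 0.70 with GC correction and block, 0.71 with GC correction in the deeper libraries, 0.41 for members whose mean count exceeded 3 in every group, 0.88 for members at least 4-fold lower in adults, and 0.46 (without AireEEDdKO replicate 3) to 0.80 (GC-corrected, without AireKO replicate 3) in fits without a library. Of 2547 values of named genes, 1613 kept their direction and call and 933 kept only their direction. For Dlk1 alone the sign turned, to -2.60 CPM on the linear scale. With the replicate number as a block, 239 genes were called (123 positive and 116 negative), including 104 of the 163 and 74 of the 90. Of the 3 numbers that Ctrl and EEDcKO share, 1 marks the same age, so this block is no full pairing of the difference of effects. For loss of EED without Aire, where same-numbered libraries share age and sex, the block gave 1843 calls against 1913.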
